A study of Mus musculus with 9 samples.

Results

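Pecam1, Kdr, Tie1 and Esam are genes by which endothelial cells are commonly recognised, and they were followed here across the endothelial progenitor cells (EPCs) of male, female and ovariectomized mice. The 4 genes were selected by name from the 2810 genes that the deposited tables list in any comparison, with their levels in these libraries already known, so that their levels and differences are given as a description and with no p-value, and a call by limma is given only beside the share of all listed genes with that call. The values behind the choice were their normalized counts in the 3 groups, and the choice set Pecam1, whose product is the antigen used to sort the cells, against the other 3 genes. All 4 genes are listed in the table of M-EPCs and F-EPCs, Kdr, Tie1 and Esam are listed in that of M-EPCs and OVX-EPCs, and Pecam1 alone is listed in that of F-EPCs and OVX-EPCs.

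The study asked how EPCs differ between the sexes, with and without ovarian hormones. RNA was sequenced from EPCs of male (M-EPCs), female (F-EPCs) and ovariectomized female (OVX-EPCs) C57BL/6J mice, with 3 libraries per group and 9 in all. The mice were 8 weeks old, with no transgene or drug named in the labels, and the ovaries had been removed at around 35 days of age. In every group, bone marrow cells depleted of lineage-positive cells were selected with magnetic beads, first for Sca-1 and then for CD31, and were grown on gelatin in the endothelial medium EGM-2 without added estrogen. The labels also call the cells freshly isolated, and they do not say how many mice or cultures stand behind a library. The study's methods speak of biological replicates without saying what each was, so each spread below is that between libraries. Sorting came before culture in the study's methods, and whether the RNA was taken before or after culture is not settled by the labels.

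Endothelial cells line blood vessels and keep their identity through cell surface receptors for vascular growth factors and through adhesion molecules at their borders. Kdr encodes VEGFR2, the main signalling receptor for VEGF-A in vessel growth. Tie1 encodes an orphan receptor tyrosine kinase that pairs with Tek, the angiopoietin receptor, and tunes its signal. Esam encodes an immunoglobulin-family adhesion molecule of endothelial tight junctions that platelets carry as well. Pecam1 encodes CD31, an adhesion molecule of endothelial borders that is also found on platelets, monocytes, neutrophils and some lymphocytes, so CD31 is a less exclusive endothelial marker than VEGFR2.

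Positions are those of the GENCODE annotation of GRCm38, the build that the submitters' processing notes name as mm10. Kdr (ENSMUSG00000062960.10) lies on the minus strand of chr5:75932827-75978458, Tie1 (ENSMUSG00000033191.14) on the minus strand of chr4:118471191-118490061, Esam (ENSMUSG00000001946.14) on the plus strand of chr9:37528078-37538319 and Pecam1 (ENSMUSG00000020717.19) on the minus strand of chr11:106654217-106750628. The merged exons of the 4 genes cover 9.03, 4.92, 2.87 and 6.23 kb in the same order, and exons of no other annotated gene overlap them on either strand. The values count reads over whole genes, so transcripts of a gene cannot be told apart.

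The promoter of Kdr is shown because Kdr was the most abundant of the 3 genes that were low in M-EPCs. RefSeq's promoter table for GRCm38.p6 held 2 of the 4 genes, Kdr and Tie1. The 250 bases before the RefSeq start of Kdr are printed 5′ to 3′ on the strand of the gene, with capitals marking a match to GGAAG, the core that ETS-family transcription factors bind, here on the opposite strand.
Kdr, chr5:75978456-75978705, minus strand: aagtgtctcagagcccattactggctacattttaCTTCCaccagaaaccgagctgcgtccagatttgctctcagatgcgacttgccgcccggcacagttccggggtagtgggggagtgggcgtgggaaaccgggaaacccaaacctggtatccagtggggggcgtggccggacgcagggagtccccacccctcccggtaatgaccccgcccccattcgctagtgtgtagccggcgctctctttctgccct
GGAAG was searched on both strands, with overlapping matches counted. It had 1 match in this window of Kdr, 216 bases before the start, and 6 matches in the same window of Tie1. In GENCODE a longer transcript of Tie1 starts further upstream, so that 212 of the 250 bases of its window lie inside the annotated gene, against 3 for Kdr. Of 32851 promoter windows of that length, 64.1% held at least 1 match, so its presence does not set these genes apart. AGATAA, a motif of GATA factors, and TATAAA, the TATA box, were found in neither gene on either strand, against 9.99% and 12.4% of all windows. A match is a string of letters and not a bound site.

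Per library, between 1602317 and 2070442 reads fell on the 2093 genes listed for M-EPCs and F-EPCs, between 707791 and 923145 on the 1317 listed for M-EPCs and OVX-EPCs, and between 454298 and 468833 on the 811 listed for F-EPCs and OVX-EPCs. Total depth is not known, since the tables hold only genes past the authors' screen, which asked for a 2-fold difference and set a limit on the FDR. Normalized counts are reads scaled by a per-library size factor, which the authors derived anew for every comparison. Levels in all 9 libraries are given on the scale of the table of M-EPCs and F-EPCs, to which the OVX-EPC libraries were linked through the other tables. Of the 9 endothelial markers checked against the label of the cells, Pecam1, Kdr, Tie1, Esam and Vwf are listed in at least 1 table. Cdh5, Tek, Emcn and Cldn5 are listed in none, so their levels were not analysed here.

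Kdr was low in M-EPCs and, on the authors' size factors, at a similar level in F-EPCs and OVX-EPCs, which other factors set apart (log2 differences of 1.06 and 1.05 with TMM and DESeq2). The 3 M-EPC libraries had 69.5, 68.3 and 57.4 normalized counts of Kdr. The F-EPC libraries had 345.4, 366.0 and 318.5, and the OVX-EPC libraries had 383.5, 381.1 and 317.1. Every M-EPC library lay far below the other 6 libraries, while F-EPC and OVX-EPC libraries overlapped. The means were 65.0 ± 6.65 in M-EPCs, 343.3 ± 23.9 in F-EPCs and 360.5 ± 37.7 in OVX-EPCs (SD, n = 3 each). Reads behind these values lay between 48 and 76 per M-EPC library and between 336 and 413 per library in the other groups. Kdr was 5.28-fold lower in M-EPCs than in F-EPCs, a log2 difference of -2.38 with a standard error of 0.12 from limma, and 5.54-fold lower than in OVX-EPCs, a log2 difference of -2.45 with a standard error of 0.16.

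Tie1 was lowest in M-EPCs and highest in OVX-EPCs on the authors' scale, and it was the less abundant of the receptors. The M-EPC libraries had 21.9, 18.0 and 16.7 normalized counts of Tie1, the F-EPC libraries had 37.4, 59.1 and 44.5, and the OVX-EPC libraries had 91.4, 74.7 and 65.1. No 2 groups overlapped, although the lowest OVX-EPC library lay close to the highest F-EPC library. The means were 18.9 ± 2.69, 47.0 ± 11.1 and 77.1 ± 13.3 (SD, n = 3 each) in the same order. The M-EPC values rest on 14 to 23 reads per library, a number at which counting alone gives a coefficient of variation of 22.9%. Tie1 was 2.49-fold lower in M-EPCs than in F-EPCs, a log2 difference of -1.26 with a standard error of 0.20, and 4.09-fold lower than in OVX-EPCs, a log2 difference of -1.97 with a standard error of 0.19. DESeq2, on its own factors, gave larger standard errors of 0.43 and 0.38.

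Esam, the junction gene, had the lowest level of the 4 genes in M-EPCs and the widest fold range between groups. The M-EPC libraries had 8.57, 6.29 and 8.37 normalized counts of Esam. The F-EPC libraries had 45.4, 45.5 and 48.3, and the OVX-EPC libraries had 74.4, 67.4 and 96.2. The groups did not overlap, and the order was that of Tie1. The means were 7.74 ± 1.26 in M-EPCs, 46.4 ± 1.65 in F-EPCs and 79.3 ± 15.1 in OVX-EPCs (SD, n = 3 each). Each M-EPC library had between 7 and 9 reads of Esam, above the 3 reads taken as the floor, and counting alone gives a coefficient of variation of 36.1% there. Esam was 6.0-fold lower in M-EPCs than in F-EPCs, a log2 difference of -2.45 with a standard error of 0.14, and 10.3-fold lower than in OVX-EPCs, a log2 difference of -3.20 with a standard error of 0.20. DESeq2, on its own factors, gave larger standard errors of 0.50 and 0.47. The uncertainty at so few reads is therefore larger than the limma errors show. Floors and counting errors given here cover counting error only.

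Pecam1 went the other way and was highest in M-EPCs and lowest in F-EPCs. The M-EPC libraries had 489.2, 489.5 and 483.0 normalized counts of Pecam1. The F-EPC libraries had 165.6, 155.9 and 150.7, and the OVX-EPC libraries had 359.9, 373.7 and 356.7. The 3 groups were well apart on the authors' size factors, with OVX-EPCs between the others, whereas F-EPCs and OVX-EPCs differed by log2 differences of only -0.079 and -0.086 with TMM and DESeq2 factors. The means were 487.2 ± 3.64, 157.4 ± 7.56 and 363.4 ± 9.02 (SD, n = 3 each) in the order M-EPC, F-EPC, OVX-EPC. M-EPCs exceeded F-EPCs in Pecam1 by 3.10-fold, a log2 difference of 1.62 with a standard error of 0.09. The spread of the M-EPC libraries, a coefficient of variation of 0.748%, was smaller than the 4.53% that counting alone gives at 404 to 545 reads. Over all listed genes, the replicates of a group differed by more than counting error in each of the 9 pairs in both tables that hold it (chi-square per degree of freedom between 2.83 and 22.3), so no library was a copy of another.

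**Figure D1:**
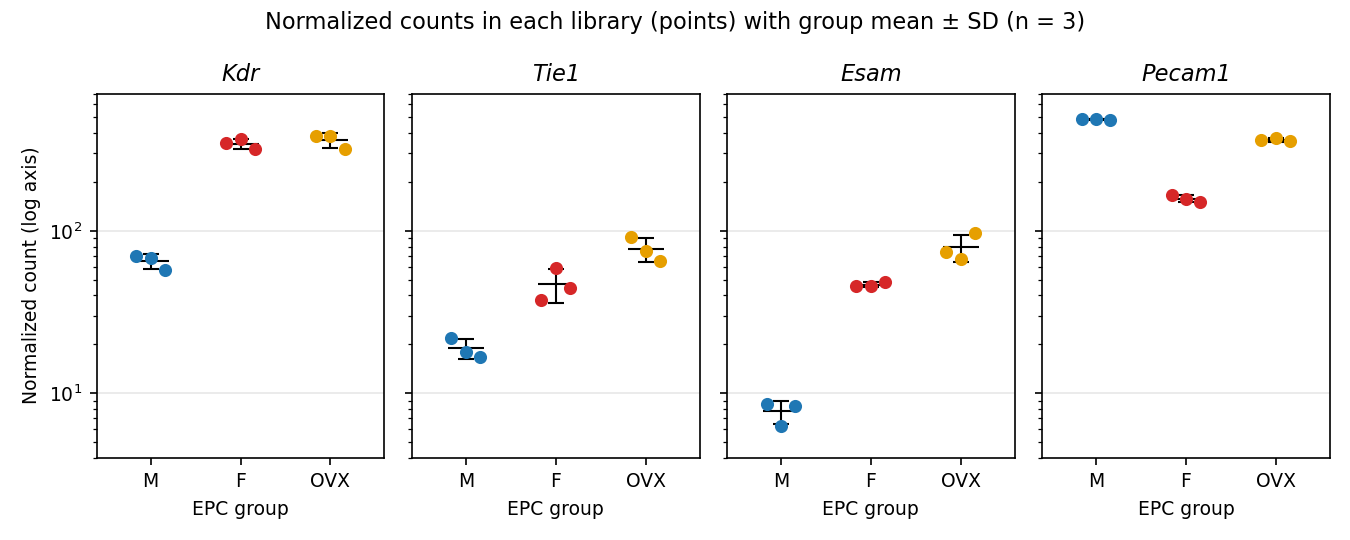
Normalized counts (log axis, scale of the table of M-EPCs and F-EPCs) of the 4 genes in male (M), female (F) and ovariectomized (OVX) EPCs. Points are libraries, and lines and bars are the mean ± SD of 3 libraries. Kdr, Tie1 and Esam were lowest in M-EPCs, with means of 65.0, 18.9 and 7.74, whereas Pecam1 was highest there, with a mean of 487.2.

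With limma, at thresholds of 0.05 on the adjusted p-value and 1 on the absolute log2 difference, Kdr, Tie1 and Esam were called lower in M-EPCs than in F-EPCs, as were 49.3% of the 2093 listed genes, and Pecam1 was called higher, as were 48.4%. Against OVX-EPCs, Kdr, Tie1 and Esam were again called lower in M-EPCs, as were 58% of the 1317 listed genes, while 40.8% were called higher. The median log2 difference of all listed genes was -0.99 against F-EPCs and -1.26 against OVX-EPCs. Both comparisons use the same M-EPC libraries. The tables hold genes that the authors selected for differing between these libraries, and the 4 genes were chosen for this pattern. Nothing is therefore read from these calls or from the lack of overlap between groups. The share of all listed genes without overlap was not computed.

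Pecam1 is not listed for M-EPCs and OVX-EPCs. From its reads and the size factors of that comparison, the M-EPC mean was 498.1 ± 4.21 and the OVX-EPC mean 371.6 ± 9.22 normalized counts (SD, n = 3 each), so that M-EPCs were 1.34-fold higher without overlap, a log2 difference of 0.42 with a standard error of 0.02 from the spread of the 6 libraries. Both spreads lay below the coefficients of variation that counting alone gives, 4.53% and 5.07%. The standard error of this difference is therefore too small. This difference fell short of the authors' screen on fold change, and with TMM and DESeq2 size factors, added after seeing the data, it was 0.62 and 1.05. The nearest difference inside the screen among the 4 genes was that of Pecam1 between F-EPCs and OVX-EPCs, a log2 difference of -1.21.

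F-EPCs had 2.31-fold less Pecam1 than OVX-EPCs, with 163.2 ± 7.84 and 377.8 ± 8.63 normalized counts (SD, n = 3 each) and a standard error of 0.11 on the log2 scale. It was called lower in F-EPCs, as were 67.3% of the 811 listed genes, whereas 30.8% were called higher. The other 3 genes are not listed in this comparison. On its size factors, Kdr had a log2 difference of -0.07 with a standard error of 0.11 and overlapping groups. The log2 differences were -0.72 for Tie1 (standard error 0.23) and -0.75 for Esam (standard error 0.16), both without overlap. The listed genes had a median log2 difference of -1.31, with which genes short of the screen cannot be compared.

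These F-EPC and OVX-EPC values turned on the size factors. TMM and DESeq2 factors take most genes as unchanged, whereas the listed genes were selected for differing. Which set of factors is right therefore cannot be settled here. Factors recomputed on the listed genes shifted the log2 scale by 1.13 (edgeR's TMM) towards F-EPCs, and genes with few counts moved by less. The log2 differences became 1.06 for Kdr, 0.40 for Tie1, 0.37 for Esam and -0.08 for Pecam1. Kdr, Tie1 and Esam thus changed sign and Pecam1 lay near 0. With DESeq2's factors, a shift of 1.13, the log2 differences were 1.05, 0.39, 0.36 and -0.09 in the same order. Under TMM the median of the listed genes itself moved from -1.31 to -0.19. In the comparisons with M-EPCs the same recomputation shifted the scale by 0.09 and -0.35 against F-EPCs and by 0.20 and 0.63 against OVX-EPCs (TMM and DESeq2), and no sign changed among the 4 genes. The split of the calls by direction also differed between these fits, which change the tool along with the factors. Against F-EPCs, limma on the authors' factors called 1012 genes higher and 1031 lower in M-EPCs, edgeR with TMM called 1042 and 926, and DESeq2 called 622 and 1050. Against OVX-EPCs, limma called 537 and 764, edgeR with TMM called 549 and 676, and DESeq2 called 549 and 495. For F-EPCs and OVX-EPCs, limma called 250 genes higher and 546 lower in F-EPCs, edgeR with TMM called 255 and 149, and DESeq2 called 255 and 125.

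**Figure D2:**
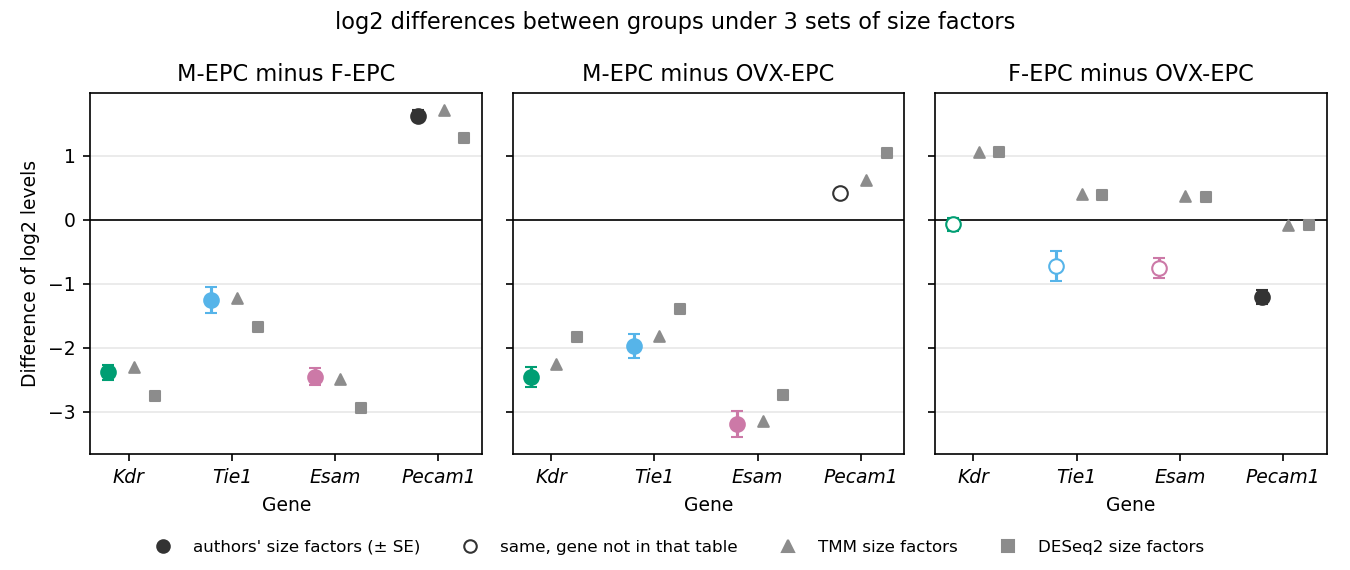
Differences of log2 levels of the 4 genes in the 3 comparisons, first group minus the second. Circles use the authors' size factors with a standard error (open where the gene is not in that table), and grey triangles and squares use TMM and DESeq2 factors recomputed on the listed genes. Pecam1 lay above 0 and the other genes below 0 in both comparisons with M-EPCs under each set of factors, whereas Kdr, Tie1 and Esam moved from below to above 0 between F-EPCs and OVX-EPCs.

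Ratios of reads within a library do not depend on any size factor, and they set Pecam1 against each of the other genes directly. Pecam1 had 7.04, 7.17 and 8.42 reads for each read of Kdr in the M-EPC libraries. The ratio was 0.480, 0.426 and 0.473 in F-EPCs and 0.939, 0.981 and 1.13 in OVX-EPCs. M-EPCs thus had several Pecam1 reads per Kdr read, OVX-EPCs about equal numbers, and F-EPCs fewer Pecam1 than Kdr reads, with no overlap between groups.

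The ratio to Tie1 was 22.3, 27.3 and 28.9 in M-EPCs, 4.43, 2.64 and 3.38 in F-EPCs, and 3.94, 5.00 and 5.48 in OVX-EPCs. The ratio to Esam was 57.1, 77.9 and 57.7 in M-EPCs, 3.64, 3.43 and 3.12 in F-EPCs, and 4.84, 5.55 and 3.71 in OVX-EPCs. M-EPCs were above both other groups for each ratio. F-EPCs and OVX-EPCs overlapped for Tie1, and for Esam the highest F-EPC library lay just under the lowest OVX-EPC library.

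**Figure D3:**
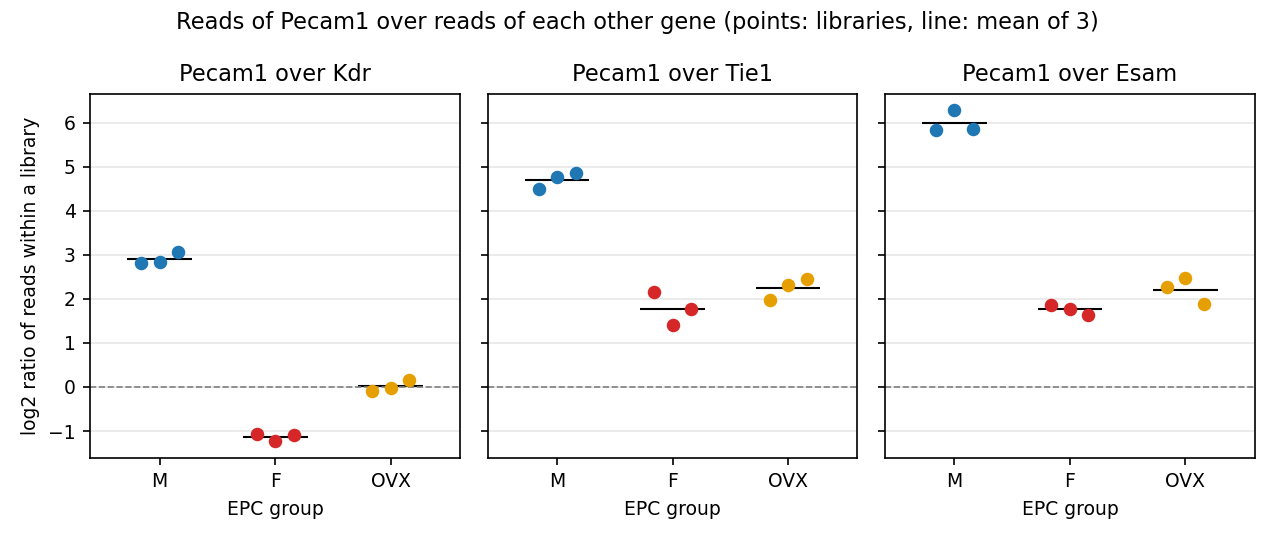
The log2 ratio of Pecam1 reads to reads of Kdr, Tie1 or Esam within each library, by group. Points are libraries and lines are means of 3 libraries, and 0 stands for equal numbers of reads. The mean log2 ratio to Kdr was 2.91 in M-EPCs, -1.12 in F-EPCs and 0.02 in OVX-EPCs.

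Against the mean log2 level of Kdr, Tie1 and Esam, Pecam1 in M-EPCs was 12.6-fold above its level in F-EPCs, a difference of log2 differences of 3.66 with a standard error of 0.12. It was 7.80-fold above its level in OVX-EPCs, or 2.96 with a standard error of 0.09. The value for F-EPCs and OVX-EPCs was -0.69 with a standard error of 0.11, so that Pecam1 was 1.62-fold lower in F-EPCs relative to the other 3 genes.

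Kdr, Tie1 and Esam did not move in fixed proportion among themselves either. The ratio of Kdr to Tie1 reads was 3.47 ± 0.315 in M-EPCs, 7.53 ± 1.56 in F-EPCs and 4.72 ± 0.469 in OVX-EPCs (SD, n = 3 each). The ratio of Kdr to Esam reads was 8.61 ± 2.05, 7.41 ± 0.745 and 4.70 ± 1.24 in the same order, so that M-EPCs and F-EPCs could not be separated by it. The ratio of Tie1 to Esam reads was 2.47 ± 0.435 in M-EPCs, against 1.01 ± 0.251 in F-EPCs and 1.0 ± 0.290 in OVX-EPCs. Tie1 thus stood higher relative to Esam in M-EPCs, and F-EPCs and OVX-EPCs were alike within their spread.

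Levels of different genes were compared per kb of merged exons. Pecam1 had 78.2 normalized counts per kb in M-EPCs, 25.3 in F-EPCs and 58.4 in OVX-EPCs. Kdr had 7.20, 38.0 and 39.9, Tie1 had 3.84, 9.56 and 15.7, and Esam had 2.70, 16.2 and 27.7 in the same order. Per kb, Pecam1 was 10.9-fold above Kdr in M-EPCs and 1.46-fold above it in OVX-EPCs, whereas in F-EPCs Kdr was 1.5-fold above Pecam1. Kdr was the second of the 4 genes in M-EPCs and OVX-EPCs and the first in F-EPCs.

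The antigen of the other sorting step, Sca-1, is the product of Ly6a, which was highest in F-EPCs, where Pecam1 was lowest. Ly6a had 258.9 ± 48.6 normalized counts in M-EPCs, 575.5 ± 27.3 in F-EPCs and 231.5 ± 27.6 in OVX-EPCs (SD, n = 3 each). Its log2 difference was -1.17 with a standard error of 0.17 between M-EPCs and F-EPCs and 1.31 with a standard error of 0.14 between F-EPCs and OVX-EPCs, and it is not listed for M-EPCs and OVX-EPCs. The log2 ratio of Ly6a to Pecam1 reads was 1.87 ± 0.137 in F-EPCs, against -0.93 ± 0.277 in M-EPCs and -0.66 ± 0.177 in OVX-EPCs. On the authors' factors, Ly6a and Pecam1 thus differed in opposite directions between F-EPCs and each other group. Both means were higher in M-EPCs than in OVX-EPCs, for Ly6a by less than the spread between libraries. With TMM factors, the log2 differences between F-EPCs and OVX-EPCs were 2.44 for Ly6a and only -0.079 for Pecam1.

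Of the VEGF ligands, receptors and coreceptors around Kdr, 1 of 9 genes is listed. Vegfb, a ligand of VEGFR1, was called lower in M-EPCs against OVX-EPCs, as were 58% of all listed genes. Its log2 difference of -1.06, with a standard error of 0.13, became -0.87 with TMM and -0.44 with DESeq2 factors, short of the threshold of 1. Vegfa, Vegfc, Vegfd, Pgf, Flt1, Flt4, Nrp1 and Nrp2 are listed in none of the tables. Of the 5 angiopoietin and Tie genes around Tie1, Angpt1 alone is listed. Angpt1, the activating ligand of Tek, had 5.69 ± 0.295 normalized counts in M-EPCs, 127.8 ± 14.8 in F-EPCs and 173.8 ± 37.8 in OVX-EPCs (SD, n = 3 each), with log2 differences of -4.26 and -4.69 for M-EPCs against F-EPCs and OVX-EPCs.

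Of 12 endothelial junction genes beside Esam, 3 are listed for M-EPCs and F-EPCs, and 2 were called lower and 1 higher in M-EPCs, against 49.3% and 48.4% of all listed genes. F11r, which encodes the junction protein JAM-A that platelets carry too, was lower in M-EPCs with a log2 difference of -3.93 (standard error 0.46). Icam2, an adhesion molecule of endothelium and platelets, was lower with a log2 difference of -1.72 (standard error 0.15). Ocln, which encodes occludin, was called higher in M-EPCs, but from 8.2 against 0.3 normalized counts, with F-EPC libraries at or below the floor. F11r and Icam2 were called lower in M-EPCs against OVX-EPCs too, as were 58% of all listed genes, with log2 differences of -4.92 and -1.19, the latter becoming -0.99 with TMM and -0.57 with DESeq2 factors. Tjp1 and Cdh2, the 2 genes listed for F-EPCs and OVX-EPCs, were both called lower in F-EPCs, as were 67.3% of all listed genes, with log2 differences of -2.24 and -1.71. That of Cdh2 became -0.66 with TMM and -0.67 with DESeq2 factors.

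Of 21 transcription factors of the endothelial lineage, Gata2 and Tal1 were called lower in M-EPCs than in F-EPCs, as were 49.3% of all listed genes, with log2 differences of -5.87 (standard error 0.71) and -1.41 (standard error 0.19). Both also act in blood progenitors. These factors and Ets1 were called lower in M-EPCs against OVX-EPCs, as were 58% of all listed genes, with log2 differences of -6.28, -1.67 and -1.05, the last becoming -0.85 with TMM and -0.42 with DESeq2 factors. Of the 47 listed genes of all lists in that comparison, 4 with TMM and 7 with DESeq2 factors fell short of an absolute log2 difference of 1, and none of 53 did between M-EPCs and F-EPCs. Sox7 and Foxc1 were called lower in F-EPCs against OVX-EPCs, as were 67.3% of all listed genes, with log2 differences of -2.41 and -2.56, Foxc1 from 1.4 against 11 normalized counts with F-EPC libraries at or below the floor. Erg, Fli1 and Sox17 are among the 16 factors listed in none of the tables.

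Other endothelial surface and secreted genes went both ways. Of 39 genes, 9 are listed for M-EPCs and F-EPCs, and 5 were called lower and 4 higher in M-EPCs, a split near the 49.3% and 48.4% of all listed genes, with a median log2 difference of -3.34. Selp, which encodes P-selectin of endothelial and platelet granules, had a log2 difference of -6.11, and Mmrn1, a platelet and endothelial granule protein, one of -5.35. Myct1 and Bmx were lower as well, with 0.9 and 0.3 normalized counts in M-EPCs against 38.2 and 15.9 in F-EPCs, the M-EPC libraries being at or below the floor. Vwf, the clotting carrier that endothelial cells and megakaryocytes make, had a log2 difference of -3.34. The 4 genes that were called higher in M-EPCs, named after their values were seen, were Vcam1, Icam1, Stab2 and Tm4sf1, with log2 differences of 1.78, 1.75, 1.43 and 2.13. Vcam1 and Icam1 encode adhesion molecules that inflamed endothelium and other cells display.

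Against OVX-EPCs, 5 of these 39 genes are listed. Vwf, Mmrn1, Selp and Myct1 were called lower in M-EPCs, and Procr, the endothelial protein C receptor, was called higher, with a log2 difference of 1.94, where 58% and 40.8% of all listed genes were called lower and higher. Between F-EPCs and OVX-EPCs, 2 were called higher and 3 lower in F-EPCs, against 30.8% and 67.3% of all listed genes. Vcam1, Tm4sf1 and Stab2 had log2 differences of -2.72, -2.59 and -1.04, of which that of Stab2 changed to 0.09 with TMM and 0.08 with DESeq2 factors. Bmx and Procr were called higher in F-EPCs, with log2 differences of 3.02 and 1.47. Among these surface and secreted genes, Vcam1, Stab2 and Tm4sf1 were, like Pecam1, called lower in F-EPCs in both comparisons on the authors' factors.

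The 7 genes chosen for the cytoplasmic and surface partners of CD31 gave little. Cd177, which encodes a neutrophil partner of CD31, averaged 0.6 normalized counts in M-EPCs against 20.7 in F-EPCs, the M-EPC libraries being at or below the floor. Cd177 was called higher in F-EPCs against OVX-EPCs, as were 30.8% of all listed genes, with a log2 difference of 2.78 (standard error 1.04). Cd38, a CD31-binding ectoenzyme, had a log2 difference of -1.11 between F-EPCs and OVX-EPCs that became 0.02 with TMM and 0.01 with DESeq2 factors. Ptpn6, Ptpn11, Itgav, Fyn and Lyn are listed in none of the tables.

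The blood cell markers that are listed in the comparisons with M-EPCs were called lower in M-EPCs, as were Kdr, Tie1 and Esam. In bulk RNA, fewer cells of a type and less RNA of a gene per cell cannot be told apart. Of 15 megakaryocyte and platelet genes, 14 are listed for M-EPCs and F-EPCs, and all 14 were called lower in M-EPCs, against 49.3% of all listed genes, with a median log2 difference of -4.09 against -0.99 for all listed genes. Their summed normalized counts lay between 1517 and 1627 in M-EPC libraries and between 11807 and 12018 in F-EPC libraries. Against OVX-EPCs the same 14 genes were called lower in M-EPCs, against 58% of all listed genes, with a median of -5.32 and sums between 1549 and 1664 against sums between 15920 and 16919. Among the genes with large differences against F-EPCs were Gp6, Ppbp and Gp5, with log2 differences of -5.63, -5.35 and -5.12, and the defining gene Itga2b averaged 53.5 normalized counts in M-EPCs against 1518 in F-EPCs. None of the 14 was at 0 in all libraries of a group. Their part in the levels of Kdr, Tie1 and Esam was not tested.

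Of 12 granulocyte, mast cell and basophil genes, 9 are listed for M-EPCs and F-EPCs and all 9 were called lower in M-EPCs, as were all 7 listed against OVX-EPCs, where 49.3% and 58% of all listed genes were called lower. Their sums lay between 78.9 and 110.5 in M-EPCs against 887.0 and 928.9 in F-EPCs, and between 33.0 and 57.9 in M-EPCs against 842.9 and 899.0 in OVX-EPCs. Mcpt8, a basophil protease, had no read in any M-EPC library and was at least 17.1-fold lower than in F-EPCs. S100a8, S100a9 and Ltf were called higher in F-EPCs against OVX-EPCs, as were 30.8% of all listed genes. Their log2 differences were 2.76, 3.24 and 4.21, and Elane was not called. On the authors' factors, Pecam1 went opposite to the called genes of this list in that comparison and between M-EPCs and F-EPCs. Between F-EPCs and OVX-EPCs, its log2 difference was only -0.079 with TMM and -0.086 with DESeq2 factors. The part of these genes in the 4 endothelial genes was not tested.

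Of 16 monocyte, macrophage and dendritic cell genes, 5 are listed in each comparison with M-EPCs, and all 5 were called lower in M-EPCs both times, against 49.3% and 58% of all listed genes. Their sums were between 217.6 and 313.4 in M-EPCs against 877.3 and 937.1 in F-EPCs, and between 1226 and 1392 in M-EPCs against 3086 and 3374 in OVX-EPCs. Itgax, which made up most of the sum in the latter, moved from -1.21 to -0.58 with DESeq2 factors, short of the threshold. Ly6c2 had log2 differences of -4.46 and -3.93, and Cd209a had no read in any M-EPC library. None is listed for F-EPCs and OVX-EPCs, and Itgam, Adgre1, Csf1r and Cd68, common markers of these cells, and the pan-leukocyte gene Ptprc are listed in none of the tables.

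Of 8 lymphocyte genes, 5 are listed against F-EPCs and 7 against OVX-EPCs, and all were called lower in M-EPCs, against the same 49.3% and 58%, with sums between 29.6 and 39.0 against 140.4 and 175.7, and between 189.2 and 236.9 against 726.3 and 773.5. Against OVX-EPCs, Nkg7 moved from -1.12 to -0.93 with TMM and -0.52 with DESeq2 factors, and Cd79b from -1.46 to -0.83 with DESeq2 factors, short of the threshold of 1. Klrb1c had no read in any M-EPC library. Cd3d and Cd79b were called lower in F-EPCs against OVX-EPCs, as were 67.3% of all listed genes. Cd79b, with a log2 difference of -1.06, changed to 0.07 with TMM and 0.06 with DESeq2 factors. The part of the monocyte and lymphocyte genes in the levels of the 4 endothelial genes was not tested either.

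Of 11 stromal and mural genes, Col1a2, Cspg4 and Pdgfra were called higher in M-EPCs against F-EPCs, as were 48.4% of all listed genes, with log2 differences of 1.45, 3.20 and 2.41 and sums between 346.4 and 400.5 against 109.9 and 128.8. Against OVX-EPCs, Des and Col1a1 were called lower in M-EPCs, as were 58% of all listed genes, with Des at no read in any M-EPC library and sums between 19.5 and 41.3 against 65.1 and 106.0. Col1a1 moved from -1.27 to -0.66 with DESeq2 factors, short of the threshold. All 5 listed genes were called lower in F-EPCs against OVX-EPCs, as were 67.3% of all listed genes, with sums between 119.0 and 157.1 against 659.3 and 859.9. Des had no read in any F-EPC library, and with Des at its bound the median log2 difference was -3.02. Like Pecam1 on the authors' factors, the genes Col1a2, Cspg4 and Pdgfra were lower in F-EPCs than in both other groups, and unlike Pecam1 they stayed at -1.21, -2.49 and -2.52 against OVX-EPCs with TMM factors. Their part in the level of Pecam1 was not tested. Tubb1, Clec1b and Gp9 of the megakaryocyte genes were called lower in F-EPCs against OVX-EPCs, and Gp9, with a log2 difference of -1.01, changed to 0.12 with TMM and 0.11 with DESeq2 factors. Clec1b moved from -1.19 to -0.065 and -0.073, and Tubb1 from -2.24 to -1.11 and -1.12. Of the 19 genes of all lists at a log2 difference of -1 or lower between F-EPCs and OVX-EPCs, 13 stayed there with either set of recomputed factors.

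**Figure D4:**
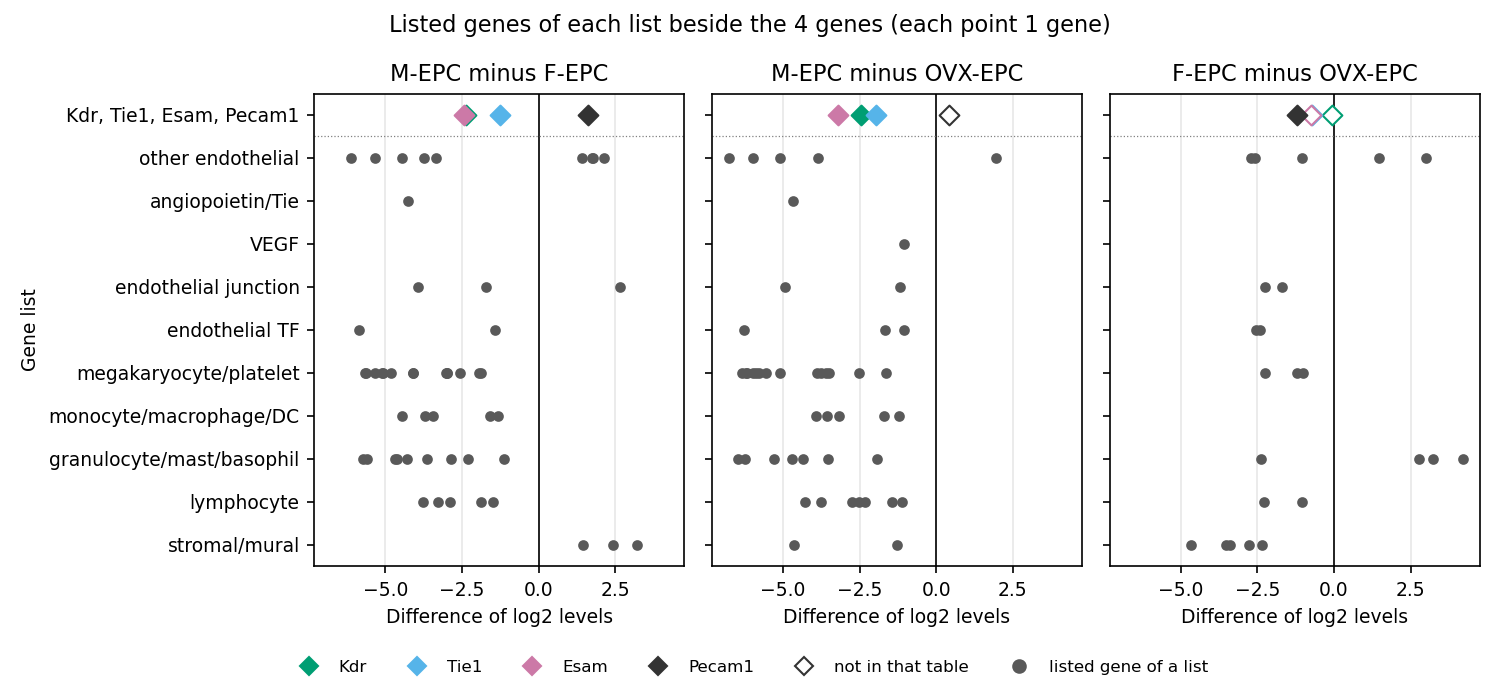
Differences of log2 levels, first group minus the second, for the 4 genes (diamonds, open where the gene is not in that table) and for the listed genes of each list (circles, 1 gene each), on the authors' size factors. The 14 megakaryocyte and platelet genes lay below 0 in both comparisons with M-EPCs, as did Kdr, Tie1 and Esam, while the other endothelial genes lay on both sides. Between F-EPCs and OVX-EPCs, Kdr, Tie1, Esam, Stab2, Gp9, Cd79b and Cd38 lay above 0 with recomputed factors, and Cd38 is not drawn.

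The 1288 genes with values in all 9 libraries were ranked by how closely they followed each of the 4 genes, as the root mean square difference of log2 profiles over the 9 libraries after each profile was centred on its mean. For Kdr the closest of the other 1287 genes were Tuba4a, Vcl and Slc14a1, at 0.18, 0.22 and 0.23. For Tie1 they were Rbm38, Zfpm1 and Mtss2, at 0.21, 0.23 and 0.23, and for Esam they were Pde5a, Tesc and Prkca, at 0.21, 0.23 and 0.25. For Pecam1 they were Trf, Gm10134 and Tnfrsf14, at 0.08, 0.08 and 0.09. Pecam1 therefore had nearer neighbours than the other 3 genes. Tie1 and Esam had fewer reads than Pecam1 in every group, and the part of counting error in these distances was not tested.

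By the same measure, Kdr and Esam were 0.42 apart, Kdr and Tie1 0.49, and Tie1 and Esam 0.64. Esam was the 54th closest gene to Kdr and Tie1 the 93rd. Pecam1 was 1.69 from Kdr, 1.28 from Tie1 and 1.83 from Esam, at ranks 798, 637 and 793 among the 1287 genes. These distances are a description over 9 libraries that share size factors, among genes selected for differing between them.

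**Figure D5:**
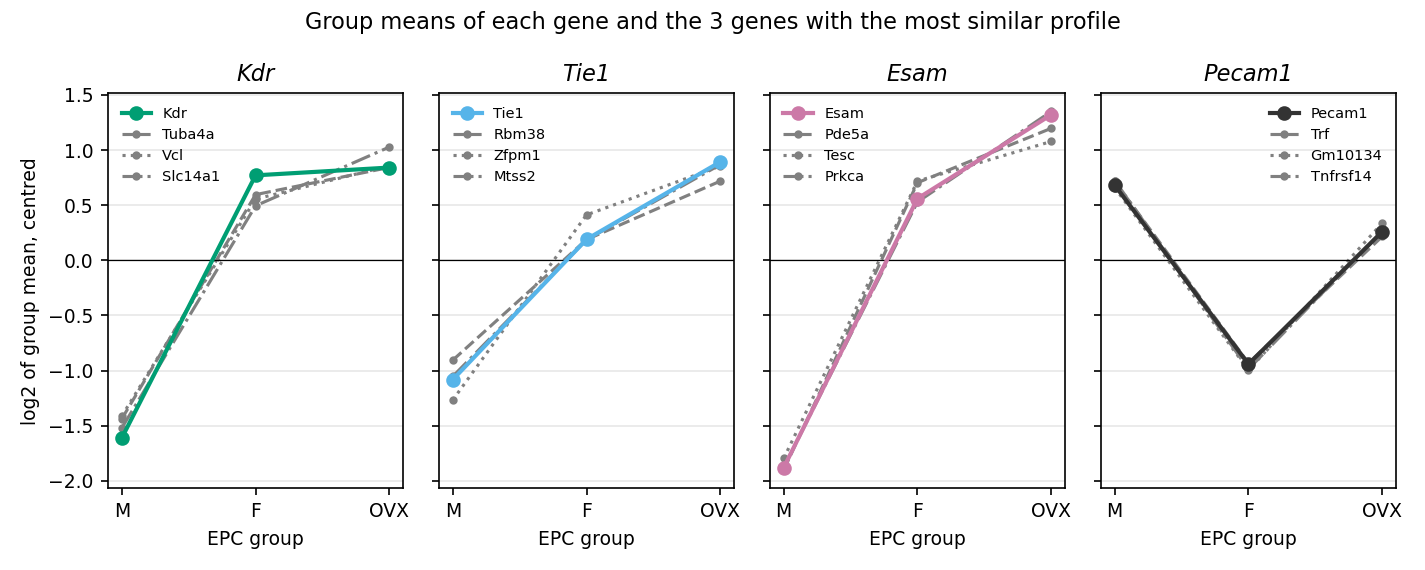
The log2 of the group mean plus 1, centred over the 3 groups, for each of the 4 genes (coloured) and the 3 genes with the smallest root mean square difference over 9 libraries (grey), on the authors' size factors. Kdr, Tie1 and Esam and their neighbours were lowest in M-EPCs, and Pecam1, Trf, Gm10134 and Tnfrsf14 were lowest in F-EPCs.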

How the data were processed

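Libraries (3 for each kind of EPC) were made with a directional kit. The strand setting of the counting is not given in the sources used here. Per the submitters' processing notes and the study's methods, the authors mapped reads with HISAT2 to mm10, quantified with Cufflinks tools and compared groups with DESeq. For each of 3 comparisons they deposited a table of the genes past their screen, whose signal per library is a normalized count. The tables also hold the authors' fold changes and p-values, which were not used.

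Groups came from the labels. Whole reads were recovered (100% of values within 0.001), and all 4602 values given in more than 1 table had the same reads. The design had foreseen edgeR for counts of all genes. As the tables hold selected genes, limma 3.58.1 in R 4.3.3 was fitted per comparison to log2 of the normalized count plus 1 over all listed genes, with no covariate and Benjamini-Hochberg adjustment over them. Differences for genes outside a table used its size factors and have no test. On simulated data with 200 genes changed 4-fold, limma recovered 200 in each comparison with 0 false calls. Low means were raised to a floor there and most genes were unchanged, unlike in the tables. The simulation therefore checks the code and not the fit at low counts such as those of Esam. Alternatives were a pseudocount of 0.1, a mean of at least 10, a replicate block, leaving out each library, edgeR 4.0.16 and DESeq2 1.42.0. TMM and DESeq2 factors for genes outside a table were added after seeing the data.

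The 4 genes and the 12 lists (157 entries) were chosen with earlier results of these data known. Up to 4 genes per list and comparison were named by the largest absolute log2 difference, with other names given where a gene defines a cell type, bears on one of the 4 genes or changed sign, and 3 per profile by likeness. A gene that this rule names is not reported here. Figures used matplotlib 3.10.9.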

Additional observations from a re-analysis of the deposited data

How the results depend on the processing

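Of 196 values recomputed for 18 results, 175 stayed within the spread between replicates of the reported value (counts within 1.5 times), 15 moved further and 6 changed sign, all 21 under TMM or DESeq2 size factors recomputed on the listed genes. With 3 libraries per group, leaving out a library cannot move a log2 difference beyond that spread. The replicate block and the filter on the mean leave a log2 difference unchanged. Those agreements were fixed in advance, and nothing is read from their number. With DESeq2 the log2 differences between M-EPCs and F-EPCs were -2.75 for Kdr, -1.67 for Tie1, -2.94 for Esam and 1.28 for Pecam1, and TMM gave 1.72 for Pecam1. Between M-EPCs and OVX-EPCs DESeq2 gave -1.83, -1.40 and -2.74 for Kdr, Tie1 and Esam and 1.05 for Pecam1, and TMM gave -2.26 for Kdr and 0.62 for Pecam1. Between F-EPCs and OVX-EPCs, Kdr, Tie1 and Esam reversed to 1.06, 0.40 and 0.37 with TMM and 1.05, 0.39 and 0.36 with DESeq2, and Pecam1 moved to -0.079 and -0.086. The genes called there fell from 796 (250 higher, 546 lower in F-EPCs) to 404 with edgeR's TMM (255 and 149) and 380 with DESeq2 (255 and 125). With the replicate block the counts of calls were 2003, 1288 and 781 against 2043, 1301 and 796, and no call of the 4 genes changed. Same-numbered libraries correlated between -0.019 and 0.032 in their deviations from group means over 9 pairs, so the numbers were not taken to pair the libraries. Leaving out each library in turn kept every sign, with Pecam1 against the mean of the other genes between 3.58 and 3.75 (M-EPCs and F-EPCs), 2.91 and 3.04 (M-EPCs and OVX-EPCs), and -0.78 and -0.62 (F-EPCs and OVX-EPCs). Depth limits Esam most, at 7 to 9 reads per M-EPC library. Since the tables hold only selected genes, size factors could not be checked on genes that did not change.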
